A study of Mus musculus with 4 samples.

Results

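The comparison described here is between bone marrow-derived macrophages polarised with interleukin-4 (M2) and the same kind of cells polarised with interferon-γ (M1), both without interleukin-1α (IL-1α). It uses 2 of the 4 arrays of the series, 1 a side, chosen by their labels: the array of M2 cells with vehicle and the array of M1 cells with vehicle. Bone marrow cells of C57BL/6N mice were grown in M-CSF, the macrophage growth factor, at 10 ng/mL and harvested on day 9. M1 cells received 10 ng/mL interferon-γ and M2 cells 20 ng/mL interleukin-4 for 48 h, and vehicle was given for 24 h. The other 2 arrays hold the same phenotypes given 10 ng/mL IL-1α for 24 h in place of vehicle. The labels name no age or sex, and no source says whether the arrays came from separate cultures or animals. No array of unpolarised macrophages was used here, so a higher value on one side can as well be written as a lower value on the other. Every difference below is the M2 vehicle value minus the M1 vehicle value in log2 units, so positive values are higher in M2, negative values are higher in M1, and 1 unit is 2-fold. With 1 array a side there is no replicate, no standard deviation and no test, and "higher" describes these arrays only.

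Interferon-γ binds a receptor whose signalling drives interferon regulatory factors, antimicrobial GTPases, antigen presentation and inflammatory mediators. Interleukin-4 activates STAT6 through the IL-4 receptor and is known in macrophages for lectins, chitinase-like proteins, arginase and genes of tissue repair and of proliferation. Both programmes rest on a shared macrophage identity kept by M-CSF signalling and by the factor PU.1. Arrays read the RNA of the whole culture, so fewer cells of a type and less RNA per cell cannot be told apart.

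Of 19938 genes measured, 10489 reached the floor, a log2 signal of 7.62 (the median signal of the 19938 genes on the 4 arrays), on at least 1 vehicle array. They are the genes counted below. A level under this floor is not shown to be above background, and a difference with such a level on one side has an uncertain size. At least 2-fold, 737 genes (7.03%) were higher in M2 and 716 (6.83%) higher in M1, 13.9% in either direction. The median over all these genes was 0.01 and the size of the difference had a median of 0.30, a 90th percentile of 1.24 and a 99th percentile of 3.81. The standard deviation over genes was 0.92, against 0.114 between the M1 arrays with and without IL-1α and 0.177 between the M2 arrays, which hold array noise and any response to IL-1α together.

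The M1 side held more of the very large differences. At 8-fold or more there were 118 genes on the M1 side and 74 on the M2 side, and at 32-fold or more 35 and 10. Over genes at the floor on both arrays the counts were 46 and 21 at 8-fold, and 3 and 1 at 32-fold. Most of these largest differences therefore have an uncertain size. Genes under the floor on one array and above it on the other were more common among those higher in M2: in 278 of the 737 (37.7%) the M1 level was under the floor, whereas in 177 of the 716 (24.7%) the M2 level was. Among the 9455 genes at the floor on both arrays, 459 (4.85%) were higher in M2 and 539 (5.7%) higher in M1. Split into 4 equal groups by mean level, the genes with the lowest signals had 9.07% higher in M2 and 4.88% higher in M1, and those with the highest signals 4.81% and 7.40%. The lowest group reached down to a mean of 6.41, under the floor, so some of its genes entered through their higher side alone. Genes at the floor in M2 only (644) outnumbered those in M1 only (390), so the shares of the lowest group depend on this filter.

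The labels were checked first against 6 polarisation markers. Retnla, a resistin-like protein, read 4.91 in M1 and 12.67 in M2, the chitinase-like protein Chil3 5.71 and 13.29, and arginase Arg1 6.75 and 12.48. The chemokine Cxcl9 read 13.84 in M1 and 6.40 in M2, the GTPase Gbp4 13.33 and 5.86, and the nitric oxide synthase Nos2 12.999 and 6.79. Each marker lay on the side its label names, and each lay under the floor on the other side.

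**Figure D1:**
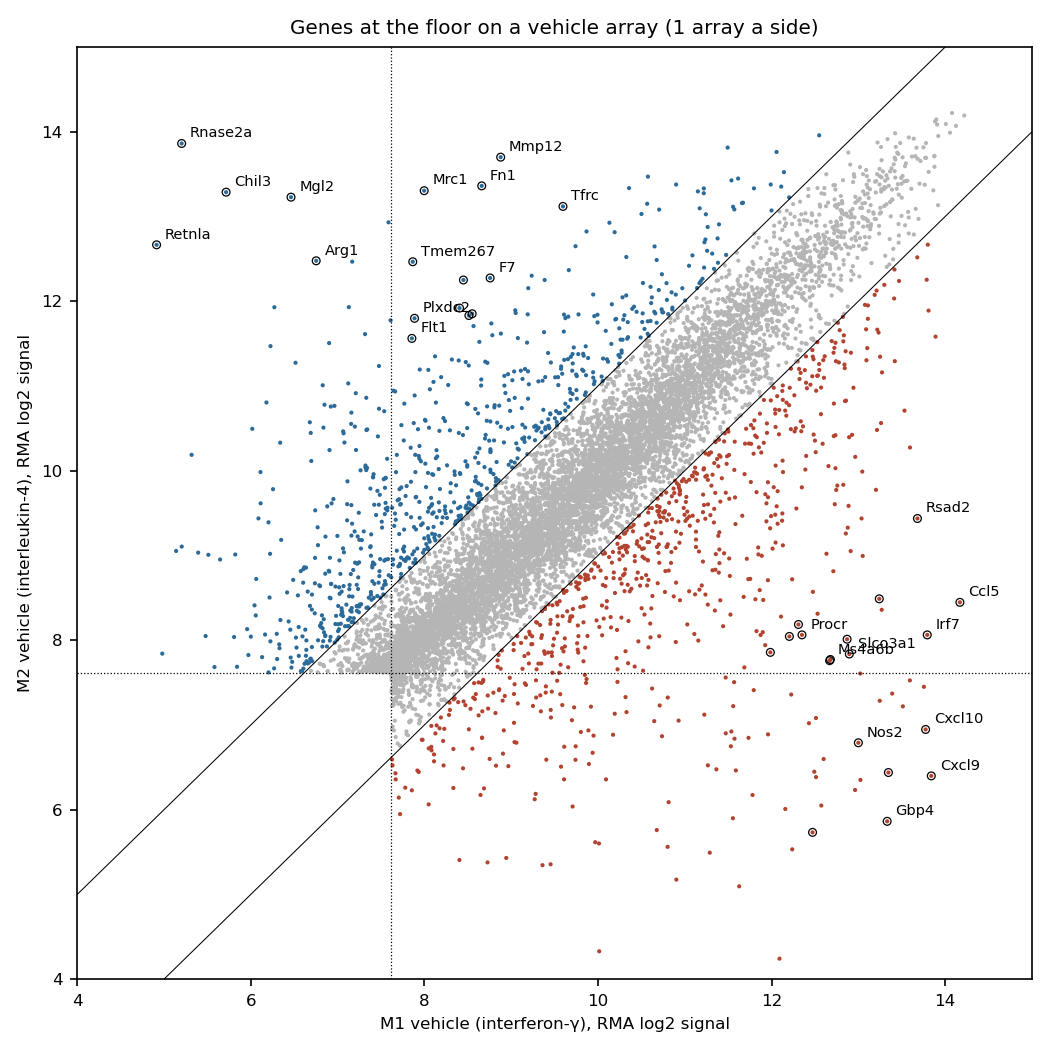
Each point is 1 of 10489 genes, with its RMA log2 signal in M1 vehicle on the x axis and in M2 vehicle on the y axis. Points at least 2-fold higher in M2 are blue and in M1 red, solid lines mark 2-fold, dotted lines mark the floor of 7.62, and rings mark polarisation markers and the genes with the largest differences. Rnase2a, Retnla and Chil3 lie left of the floor in M1, whereas Mrc1, Mmp12 and Fn1 are above it on both arrays.

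Genes at the floor on both arrays have better supported sizes, because both levels lie above it. Some lower levels, such as those of Ms4a6b, Slco3a1 and Il15ra, lie close to it, and their sizes remain uncertain. On the M1 side the list was led by interferon genes. Irf7, the regulatory factor that amplifies interferon production, read 13.79 in M1 and 8.06 in M2, 53.1-fold apart. The chemokine Ccl5 read 14.17 and 8.45, a difference of -5.72. The antiviral genes Mx1 (-4.91), Oas3 (-4.86), Cmpk2 (-4.75), Rsad2 (-4.24) and Gbp3 (-4.12) lay between 17.4-fold and 30.0-fold higher in M1. Other genes of like size lie outside the antiviral set. Slco3a1, an organic anion transporter, read 12.89 in M1 and 7.84 in M2. Ms4a6b, a membrane-spanning 4A protein, read 12.67 and 7.76. Procr, the endothelial receptor of the anticoagulant protein C, read 12.35 and 8.06, and the orphan receptor gene Gpr31b 12.20 and 8.04. Il15ra, which presents interleukin-15 to lymphocytes, read 11.99 and 7.86.

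The M2 side held genes of varied function. The mannose receptor Mrc1 read 8.0 in M1 and 13.30 in M2, 39.6-fold apart. Mmp12, the macrophage elastase, read 8.88 and 13.70, and Fn1, the matrix protein fibronectin, 8.66 and 13.36. The transferrin receptor Tfrc, which takes up iron, read 9.60 and 13.12, and was well above the floor on both arrays. Clotting factor VII, F7, read 8.76 and 12.27, and Vwf, the von Willebrand factor that carries factor VIII and binds platelets, 8.51 and 11.83. Flt1, a receptor for vascular endothelial growth factor, read 7.86 and 11.56. The Golgi-associated kinase gene Gask1b (3.80), the plexin domain gene Plxdc2 (3.91), Tmem267 (4.60) and Tceal9 (3.30) complete the set with Dnmt3aos, a transcript antisense to the DNA methyltransferase Dnmt3a. Dnmt3aos read 8.40 in M1 and 11.92 in M2 and Dnmt3a itself 10.30 and 11.83, and whether these probe sets separate the strands is not given in the sources used here.

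**Figure D2:**
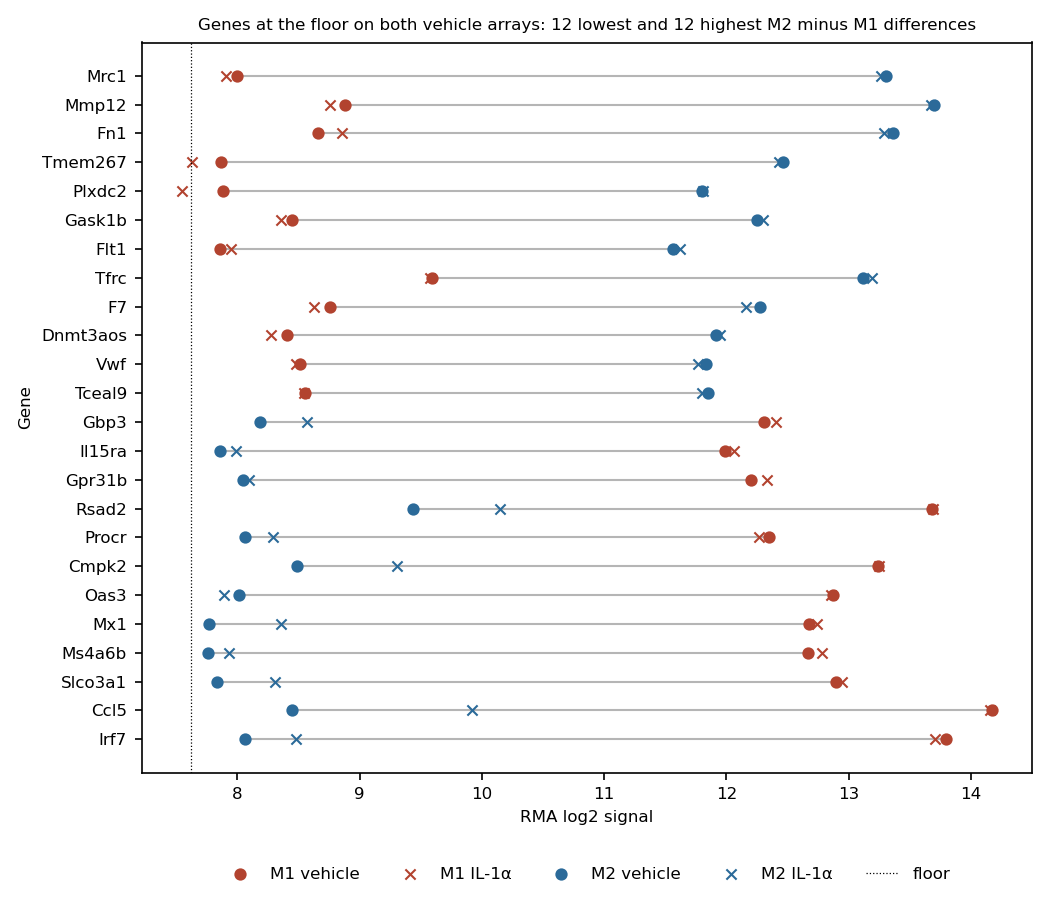
RMA log2 signal (x axis) of the 12 genes with the largest differences toward M2 and the 12 toward M1 among genes at the floor on both vehicle arrays. Filled circles are vehicle arrays, crosses the IL-1α arrays, red is M1, blue is M2, and the grey line joins the vehicle arrays. The crosses lie near the circles of their phenotype, the widest shift being that of Ccl5 in M2 from 8.45 to 9.92.

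Larger differences occurred among genes above the floor on 1 side only. In M2 the eosinophil-associated ribonuclease Rnase2a led with 5.20 in M1 and 13.86 in M2, and the lectin Mgl2 read 6.46 and 13.23. In M1 the DNA-sensing family member Ifi205 read 13.35 against 6.44, the chemokine Cxcl10 13.77 against 6.95 and the GTPase Gbp5 12.47 against 5.73. Rnase2a, Ifi205 and Gbp5 belong to families of near-identical genes whose probes can cross-hybridise, so the value of a single member is uncertain.

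Promoter windows of these genes were then searched for 3 short motifs. The windows, from RefSeq on GRCm38.p6, run from 250 bases before to 50 after a gene's start. Genes at the floor had a mean of 1.27 windows, and only the first listed window of each gene was searched. A gene without a match below may therefore hold one in another window. The 3 sequences below were chosen because they hold a match, to show where it falls. The windows of Irf7, Cxcl9, Cmpk2, Chil3, Mrc1, Mmp12, Flt1 and F7, also searched, held no match to any of the motifs, and Isg20, an exonuclease gene on the M1 side, held a match of the STAT6 type described next. In Oas3 and Rsad2 capitals mark a match to the core of the interferon-stimulated response element, GAAA and GAAA with 2 bases between them (in Rsad2 as its reverse complement). In Retnla they mark the spacing bound by STAT6, TTC and GAA with 4 bases between them.
Oas3 promoter window (GRCm38.p6, chr5:120777610-120777909, minus strand): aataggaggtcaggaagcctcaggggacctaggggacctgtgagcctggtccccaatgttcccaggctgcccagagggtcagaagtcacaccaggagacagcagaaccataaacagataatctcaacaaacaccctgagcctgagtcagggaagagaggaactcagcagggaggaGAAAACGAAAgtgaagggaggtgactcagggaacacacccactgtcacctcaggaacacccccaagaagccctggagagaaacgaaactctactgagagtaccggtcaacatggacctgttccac
Rsad2 promoter window (GRCm38.p6, chr12:26456403-26456702, minus strand): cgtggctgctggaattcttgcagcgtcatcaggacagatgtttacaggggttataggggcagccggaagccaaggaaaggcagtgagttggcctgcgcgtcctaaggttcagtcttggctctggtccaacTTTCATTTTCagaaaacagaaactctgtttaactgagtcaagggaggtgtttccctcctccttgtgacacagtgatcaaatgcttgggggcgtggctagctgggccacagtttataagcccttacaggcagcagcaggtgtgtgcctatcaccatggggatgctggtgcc
Retnla promoter window (GRCm38.p6, chr16:48842359-48842658, plus strand): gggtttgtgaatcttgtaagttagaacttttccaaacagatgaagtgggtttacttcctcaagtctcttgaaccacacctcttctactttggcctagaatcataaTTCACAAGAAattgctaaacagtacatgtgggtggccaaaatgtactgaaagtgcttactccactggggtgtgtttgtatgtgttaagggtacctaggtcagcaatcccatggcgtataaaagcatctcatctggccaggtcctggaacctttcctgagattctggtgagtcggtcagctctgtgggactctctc
The matches begin 75 bases before the start in Oas3, 120 in Rsad2 and 145 in Retnla. A match to a short motif is a description of the letters, not a bound site.

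The interferon-type motif was searched on both strands in the first listed window of each gene. It was present in 76 of 572 genes higher in M1 that had a window (13.3%), in 18 of 596 higher in M2 (3.02%), in 2.48% of genes not called in either direction and in 3.49% of all 27025 genes with a window in the table. The share increased with the size of the difference: it was 7.87% at differences from -2 to -1, 18.3% from -3 to -2, 20.5% from -4 to -3 and 39.6% (19 of 48) at -4 and below, and 0 of 51 windows had it above 3. A selection of sites from the last M1 group, each with 6 flanking bases in lower case, lets members of a gene family be compared.
Ifi205 site (chr1:174031874-174031895, minus strand): gccaggGAAATTGAAAgctatg
Ifi205 site (chr1:174031717-174031738, minus strand): cccattTTTCACTTTCtcagtt
Ifi213 site (chr1:173599330-173599351, minus strand): tctgagGAAATCGAAAgctatg
Ifi208 site (chr1:173673601-173673622, plus strand): tctgagGAAATCGAAAgctatg
Cxcl10 site (chr5:92349087-92349108, minus strand): gctttgGAAAGTGAAActtacc
Gbp5 site (chr3:142496763-142496784, plus strand): gtgtagTTTCAATTTCagttta
Gbp2b site (chr3:142594704-142594725, plus strand): ttctaaTTTCACTTTCttcttt
Ifit3 site (chr19:34583367-34583388, plus strand): ggtaagTTTCACTTTCctcttc
Ifit3 site (chr19:34583401-34583422, plus strand): agtctgTTTCAGTTTCtacttt
Ifit3b site (chr19:34607763-34607784, plus strand): ggtaagTTTCACTTTCctcttc
Ifit3b site (chr19:34607797-34607818, plus strand): agtctgTTTCAGTTTCtacttt
Ifit1 site (chr19:34640779-34640800, plus strand): cttcagTTTCACTTTCcagtct
Ifit1 site (chr19:34640798-34640819, plus strand): tctcagTTTCAGTTTCtcactg
Ddx60 site (chr8:61928028-61928049, plus strand): tgaatgGAAACCGAAActtaaa
Ddx60 site (chr8:61928062-61928083, plus strand): agaagaGAAACCGAAActatcc
Ifit3 and Ifit3b carry the same letters at both sites, and so do Ifi213 and Ifi208 at theirs, so family members are not independent counts. Ddx60, a helicase of RNA sensing, read 11.56 in M1 and 7.22 in M2.

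The shares of the STAT6 spacing lay closer together. It was present in 6.64% of genes higher in M1, 7.89% of those higher in M2, 5.12% of genes not called and 6.99% of all in the table. At differences above 3 it stood in 9 of 51 windows (17.6%), but at -4 and below it stood in 7 of 48 (14.6%), against 5.41% of all genes at the floor. From -3 to -2 the share was 11.5%, from 2 to 3 it was 8.04%, and from -4 to -3 it was 5.13%. An NF-κB type motif, GGGA and TTCC with 2 bases between them, was added after the values were seen. It was present in 3.32% of genes higher in M1, 1.34% of those higher in M2 and 1.24% of genes not called. The spacing stood in windows of 47 genes higher in M2, and the sites of 5 of those with differences above 3 are given as examples.
Retnla site (chr16:48842458-48842479, plus strand): tcataaTTCACAAGAAattgct
Tmem26 site (chr10:68723513-68723534, plus strand): agggcaTTCTTATGAActccct
Tmem26 site (chr10:68723699-68723720, plus strand): gaagagTTCTCTGGAAgttgga
Rbp4 site (chr19:38125426-38125447, minus strand): ttgcgtTTCTAGAGAAtattta
Tmem267 site (chr13:119487845-119487866, plus strand): gaatagTTCATCTGAAgcgatt
Pdcd1lg2 site (chr19:29410831-29410852, plus strand): ctccagTTCCTCAGAAaccatt
Tmem26 read 7.59 in M1 and 12.93 in M2. Rbp4, the carrier of retinol in blood, read 6.23 and 11.47, and Pdcd1lg2, which encodes the T cell inhibitory ligand PD-L2, 7.21 and 10.91.

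**Figure D3:**
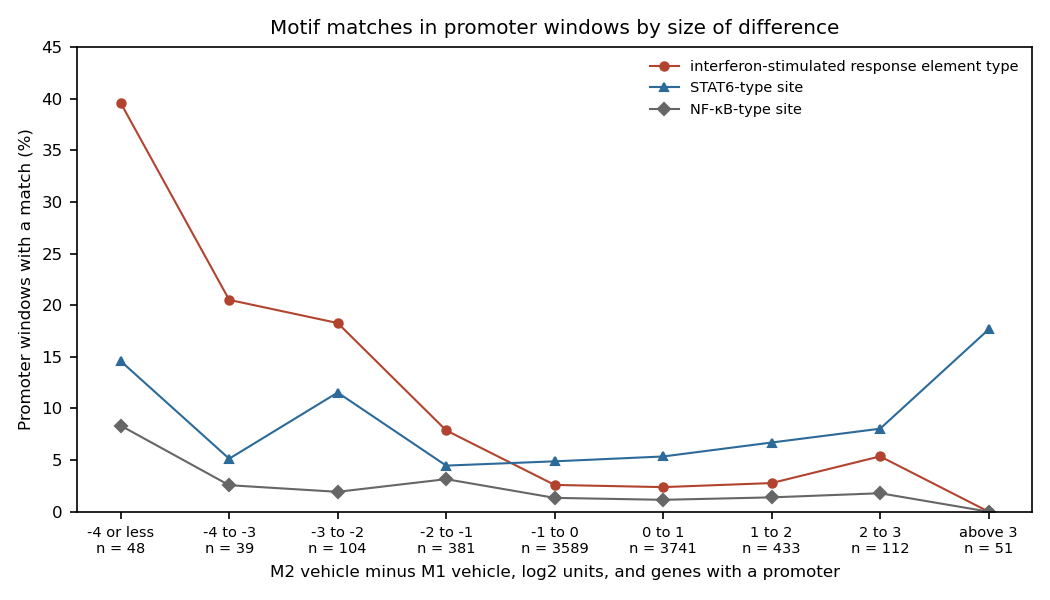
Share of promoter windows with a motif match (y axis, percent) for genes binned by the M2 minus M1 difference (x axis, log2 units, with the number of genes with a window). The interferon-type line is at 39.6% in the lowest bin and near the level of all genes from -1 upward, and the other lines stay under 18%.

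Gene groups were next described by function, with the counts read against 7.03% of all genes higher in M2 and 6.83% higher in M1. A member at the floor on only 1 vehicle array entered these counts through its higher side alone. Among surface receptors, 9 of 22 paired and sialic acid-binding receptors at the floor were higher in M1 and 3 higher in M2 (median -0.52, against 0.01 for all genes). These receptors pair activating and inhibitory forms that set the threshold of myeloid activation. Treml4 read 10.32 in M1 and 7.33 in M2, the activating Pilrb1 10.90 and 7.98, its relative Pilrb2 9.56 and 7.36, and the inhibitory Siglece 9.72 and 7.21. Trem2, a lipid-sensing receptor of phagocytes, lay on the other side at 11.80 and 13.33. Of 24 SLAM, Ly6 and tetraspanin proteins, 7 were higher in M1, among them Ly6e (13.59 and 10.27), Slamf6 (10.19 and 7.13) and Ly6i (8.73 and 5.38), and 2 were higher in M2, led by the tetraspanin Cd9 (9.24 and 12.30).

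Receptors and bridges of dead cell uptake leaned the other way, with 7 of 19 higher in M2 and 3 higher in M1 (median 0.50). The integrin chain Itgb3 read 7.61 in M1 and 11.77 in M2, the phosphatidylserine bridge Mfge8 9.74 and 12.65, and Pros1, the protein S ligand of TAM receptors, 8.72 and 10.76. The TAM receptor Axl was higher in M1 at 10.50 and 8.38. Mertk, another TAM receptor and a core macrophage gene, read 12.46 and 11.56, short of 2-fold.

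Cytokine receptors were found on both sides. Of 26 at the floor, 8 were higher in M1 and 4 in M2 (median 0.01). Il12rb1, a chain of the interleukin-12 and interleukin-23 receptors, read 11.57 in M1 and 7.50 in M2, and Il18bp, which neutralises interleukin-18, 11.89 and 9.00. Il31ra, a receptor chain for interleukin-31, read 6.11 and 9.61. The receptor chains for the polarising cytokine itself lay on the M1 side: Il4ra read 12.02 in M1 and 10.98 in M2, and Il13ra1, the partner chain of the type II receptor, 10.52 and 7.64. Il6st, the shared signalling chain of the interleukin-6 family, read 11.22 and 13.27. Il4ra, Il13ra1 and Il6st were chosen after their values were seen.

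Growth factor and guidance pathways were described next. In the TGF-β and BMP list 4 of 20 were on the M1 side and 1 on the M2 side (median -0.06): the transcriptional repressor Skil read 10.42 in M1 and 7.69 in M2, the activin chain Inhba 9.29 and 7.66, Smad3 9.83 and 8.49, and the co-receptor Tgfbr3 7.13 and 8.52. In the Wnt list 1 of 19 was higher in M2, the co-receptor Lrp6 (9.62 and 10.79), and none was higher in M1. In the Notch list 1 of 17 was higher in M1, the ubiquitin ligase Dtx2 (10.08 and 9.02), and none was higher in M2. The Wnt and Notch shares are under those of all genes in either direction. Semaphorins, plexins and ephrins had 4 of 17 higher in M2 and 2 higher in M1 (median 0.33, but -0.09 with a floor at the 75th percentile). The plexins Plxnc1 (9.66 and 12.37) and Plxnd1 (10.62 and 12.05) and Sema4b (8.93 and 10.92) were higher in M2, and Sema4a (12.07 and 9.37) in M1.

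Inside the cell, kinase pathways held members on both sides. Rasgrp3, an activator of Ras that responds to diacylglycerol, read 5.20 in M1 and 9.10 in M2, and Dusp4, a phosphatase that switches off MAP kinases in the nucleus, 7.64 and 10.94. Dusp16 (9.48 and 7.94) and the Ras inhibitor Rasa4 (11.57 and 10.01) were higher in M1. In all, 2 of 26 MAP kinase and phosphatase genes were higher in M2 and 4 in M1 (median -0.35). Of 26 genes of PI3K, AKT and mTOR signalling, 3 were higher in M2 and 2 in M1 (median -0.03). The 3 were Deptor (7.55 and 9.62) and Sesn1 (9.61 and 11.84), which restrain mTOR signalling, and Rragd (8.51 and 9.62), a GTPase that brings mTOR complex 1 to the lysosome. The adaptor Pik3ap1, which links receptors to PI3K, was higher in M1 at 13.41 and 12.03. Sesn2, of the same family as Sesn1, was the other M1 member at 10.22 and 9.22, so the sestrins lay on both sides. It was added after its values were seen. Of 29 regulators of cyclic nucleotides and G proteins, 5 were higher in M2, led by the phosphodiesterase Pde3b (6.64 and 8.86), Rgs18 (9.54 and 11.10) and the cyclase Adcy3 (7.48 and 8.81), and 2 in M1, with the cyclic AMP-responsive factor Crem at 9.15 and 7.81.

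Ion channels had a single very large difference. Clic5, a chloride intracellular channel protein that also binds the cortical cytoskeleton, read 12.49 in M1 and 6.45 in M2, a difference of -6.04. The store-operated calcium channel gene Orai2 (10.77 and 8.57) and Lrrc8c, a subunit of the volume-regulated anion channel (12.94 and 10.98), were also higher in M1. The chloride-proton exchanger Clcn5 read 9.42 and 11.39. Over the list 4 of 34 were higher on each side and the median was 0.01.

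Transcription factors of macrophage lineage and effector function included 9 of 43 higher in M2 and 5 higher in M1 (median 0.09). Myc, the driver of growth and ribosome synthesis, read 7.12 in M1 and 11.03 in M2. Bhlhe40 read 8.57 and 11.71, and the hypoxia-inducible factor chain Epas1 7.16 and 9.59. Batf2, which partners Irf1, read 11.53 in M1 and 8.30 in M2. The lineage factor PU.1 was close on both arrays, its gene Spi1 reading 12.92 and 12.74. Of 25 nuclear receptors and co-regulators, 3 were higher in M1, namely the oxysterol receptor Nr1h3 (11.96 and 9.86), the oestrogen receptor Esr1 (8.90 and 7.29) and the glucocorticoid receptor Nr3c1 (11.09 and 9.93), and 2 in M2, with the vitamin D receptor Vdr at 7.03 and 8.78. Of 14 circadian genes only Nfil3 passed 2-fold, at 9.52 and 10.70.

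Chromatin modifiers were counted next. Of 48 histone and DNA modifying enzymes, 3 were higher in M1 and 2 in M2 (median -0.14). The M1 share of 6.25% was close to the 6.83% of all genes, and the M2 share was 4.17% against 7.03%. Setdb2, a histone methyltransferase family member, read 9.25 in M1 and 7.22 in M2, and the acetyltransferase Kat2b 9.53 and 8.42. Dnmt3a, given above, and Uhrf1, which guides maintenance methylation after replication (7.38 and 9.11), were the M2 members. In mRNA decay and editing, 4 of 26 were higher in M1, led by the cytidine deaminase Apobec3 (11.13 and 9.10), the RNA-editing enzyme Adar (11.69 and 9.96) and the ribonuclease Zc3h12c (10.94 and 9.76). Zfp36l1, which destabilises AU-rich mRNAs, was the 1 member higher in M2, at 8.84 and 10.57. None of the 5 long non-coding and microRNA host genes at the floor passed 2-fold, with Malat1 at 12.71 and 12.18 and Xist at 12.72 and 12.80.

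Metabolic lists showed different patterns for the synthesis and the breakdown of nucleotides. In serine, one-carbon and nucleotide synthesis, 7 of 26 were higher in M2 and 1 in M1 (median 0.64). The ribonucleotide reductase subunits Rrm2 (7.84 and 10.27) and Rrm1 (9.39 and 11.10), the phosphoribosyl pyrophosphate synthetase Prps1 (7.96 and 10.11) and the dUTP hydrolase Dut (7.30 and 9.28) were higher in M2. The mitochondrial one-carbon enzyme Mthfd2 was the M1 member, at 10.68 and 9.58. In salvage and breakdown, 5 of 21 were higher in M1 and 2 in M2 (median -0.30). Uridine phosphorylase Upp1 read 11.57 in M1 and 6.84 in M2, the pyrimidine nucleotidase Nt5c3 10.14 and 8.27 and purine nucleoside phosphorylase Pnp 12.57 and 10.98, while uridine-cytidine kinase Uck2 read 6.86 and 8.78.

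Tryptophan breakdown and NAD metabolism held 3 of 11 genes higher in M1 and none higher in M2 (median -0.10). Another 8 of 19 genes measured were under the floor on both arrays, among them Ido1, Ido2, Tdo2 and Kmo of tryptophan breakdown. Kynureninase, Kynu, read 11.27 in M1 and 6.52 in M2. Bst1, an ecto-enzyme that uses NAD, read 11.85 and 9.09, and Nampt, which makes the NAD precursor nicotinamide mononucleotide, 12.61 and 11.35. Amino acid genes lay the other way, with 4 of 24 higher in M2 and none in M1 (median 0.39): Gatm, the first enzyme of creatine synthesis, read 10.57 and 13.15, glutamine synthetase Glul 10.20 and 11.78, the transaminase Gpt2 8.59 and 9.93, and Pccb of propionate breakdown 8.04 and 9.23.

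Lipid genes were split over several lists. In fatty acid oxidation 2 of 26 were higher in M2 and none in M1, the electron carrier subunit Etfb (10.24 and 11.68) and the medium-chain dehydrogenase Acadm (10.04 and 11.11). The list's median was 0.47. The peroxisome list had 2 of 21 on each side, with the very-long-chain transporter Abcd2 at 6.96 in M1 and 10.77 in M2 and Hsd17b4 at 9.43 and 10.61, and with Phyh, which acts on branched fatty acids, at 11.32 and 9.95 and Pex11a at 9.21 and 8.10. Of 40 phospholipid and sphingolipid enzymes, 5 were higher in M2 and 6 in M1, a larger share than the 13.9% of all genes. Monoacylglycerol lipase Mgll read 7.33 and 10.86. On the M1 side Lpcat2, which makes platelet-activating factor, read 11.75 and 8.72, Smpdl3b 10.46 and 7.99, and the lipid phosphatase Plpp1 10.54 and 8.30.

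Sialyltransferases lay on both sides. St3gal5, which makes the ganglioside GM3, read 12.12 in M1 and 9.41 in M2, whereas St6gal1, which adds α2,6-linked sialic acid, read 8.01 and 10.59, and St8sia4, a polysialyltransferase, 7.32 and 10.06. St3gal4, of the same type as St3gal5 but on the M2 side, read 7.90 and 9.98, and was added after its values were seen. The chondroitin sulfotransferase Chst11 read 7.94 and 10.29. Over all 29 glycosyl- and sulfotransferases 6 were higher in M2 and 3 in M1 (median 0.30). Lysosomal genes had 5 of 33 higher in M2 and 1 in M1 (median 0.25): galactocerebrosidase Galc read 9.38 and 11.63, the tartrate-resistant phosphatase Acp5 9.89 and 11.33, β-glucuronidase Gusb 11.22 and 12.40, and Acp2 13.30 and 12.19. None of 31 autophagy genes passed 2-fold in either direction, against 13.9% of all genes, and the largest differences there were Uvrag at -0.90 and Gabarapl1 at 0.86.

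The cytoskeletal list had 4 of 35 genes higher on each side with a median of 0.32. Calponin 3, Cnn3, read 11.69 in M1 and 7.68 in M2, and the actin regulator Marcksl1 9.70 and 7.06. Pdlim1, which binds α-actinin, read 6.85 and 10.78, and α-actinin 1 itself, Actn1, 9.87 and 12.82. In coagulation and fibrinolysis 10 of 16 passed 2-fold, 6 of them higher in M2 and 4 in M1 (median 0.70). Tissue factor F3 (6.42 and 8.56) and its partner F7 were both higher in M2, and the anticoagulant receptor Procr and the granzyme B inhibitor Serpinb9 (11.71 and 8.96) in M1. Serpinb9 stood in the list and its counts, although it is not itself a clotting gene.

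Genes of protein synthesis, DNA repair and the cell cycle followed. Of 31 ribosome biogenesis genes 2 were higher in M2 and none in M1, with a median of 0.46, and Rrs1 (6.70 and 7.92) and the pseudouridine synthase Dkc1 (7.80 and 8.98) were the 2. Of 54 cytosolic ribosomal proteins only Rpl10a (12.11 and 13.35) passed 2-fold, and the median was 0.37. The 77 mitochondrial ribosomal proteins had no member past 2-fold and a median of -0.10, and the 18 aminoacyl-tRNA synthetases none and 0.04, with Wars, known as an interferon-γ target, at 12.01 and 11.03 and Iars at 10.23 and 11.22. DNA repair genes had 6 of 20 higher in M2 and none in M1 (median 0.59), among them the endonuclease Apex1 (8.44 and 10.42), DNA ligase Lig1 (7.76 and 8.95), Fancd2 (6.13 and 7.80) and Brca2 (6.47 and 7.68). Fancd2 and Brca2 were under the floor in M1, and 11 of 31 repair genes measured were under it on both arrays. Among G1 regulators, 3 of 25 were higher on each side. Cyclin D2, Ccnd2, read 11.44 in M1 and 8.16 in M2, cyclin E1, Ccne1, 10.61 and 9.21, and cyclin D3, Ccnd3, 10.82 and 9.48, while the S phase factor E2f8 read 7.28 and 9.18.

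Cell death genes lay mostly on the M1 side. In the apoptosis and necroptosis list 9 of 26 were higher in M1 and 1 in M2 (median -0.54). The death ligand TRAIL, Tnfsf10, read 10.68 in M1 and 5.76 in M2, Xaf1, which antagonises an apoptosis inhibitor, 11.87 and 8.06, and Zbp1, a nucleic acid sensor of necroptosis, 12.63 and 9.02. The inhibitor Cflar, which blocks caspase-8, was on the same side at 11.36 and 9.02, and caspase 6, Casp6, on the other at 9.83 and 11.38. Of 18 p53 targets 4 were higher in M1 and 1 in M2 (median -0.55), with the death receptor Fas at 9.06 and 6.79, Phlda3 at 11.39 and 10.05, the p53 ligase Mdm2 at 12.76 and 11.74, and Sesn1, given above, on the M2 side.

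Antiviral machinery had the highest shares of M1 members among the lists by function. In ISG15 and ubiquitin-like conjugation 10 of 20 were higher in M1 and none in M2 (median -1.0). Herc6, the mouse ISG15 ligase, read 12.89 in M1 and 9.58 in M2, the ISG15-removing protease Usp18 13.53 and 10.71, the giant ligase Rnf213 13.21 and 10.48, and the conjugating enzyme Ube2l6 12.50 and 10.36. Of 17 ADP-ribosyltransferases 7 were higher in M1 and none in M2 (median -0.59), with Parp10 (11.12 and 8.54), Parp11 (11.17 and 8.60), Parp14 (12.89 and 10.39) and Parp8 (11.58 and 9.37). Of 21 genes of cytosolic nucleic acid sensing, 11 were higher in M1 and 1 in M2 (median -1.10). The RNA sensors Ifih1 (12.12 and 9.50) and Ddx58 (12.65 and 10.05) and the peptidoglycan sensor Nod1 (11.81 and 8.48) were among the 11. The 1 on the M2 side was Rnaseh2a (9.45 and 10.67), a subunit of the enzyme that removes ribonucleotides from DNA.

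**Figure D4:**
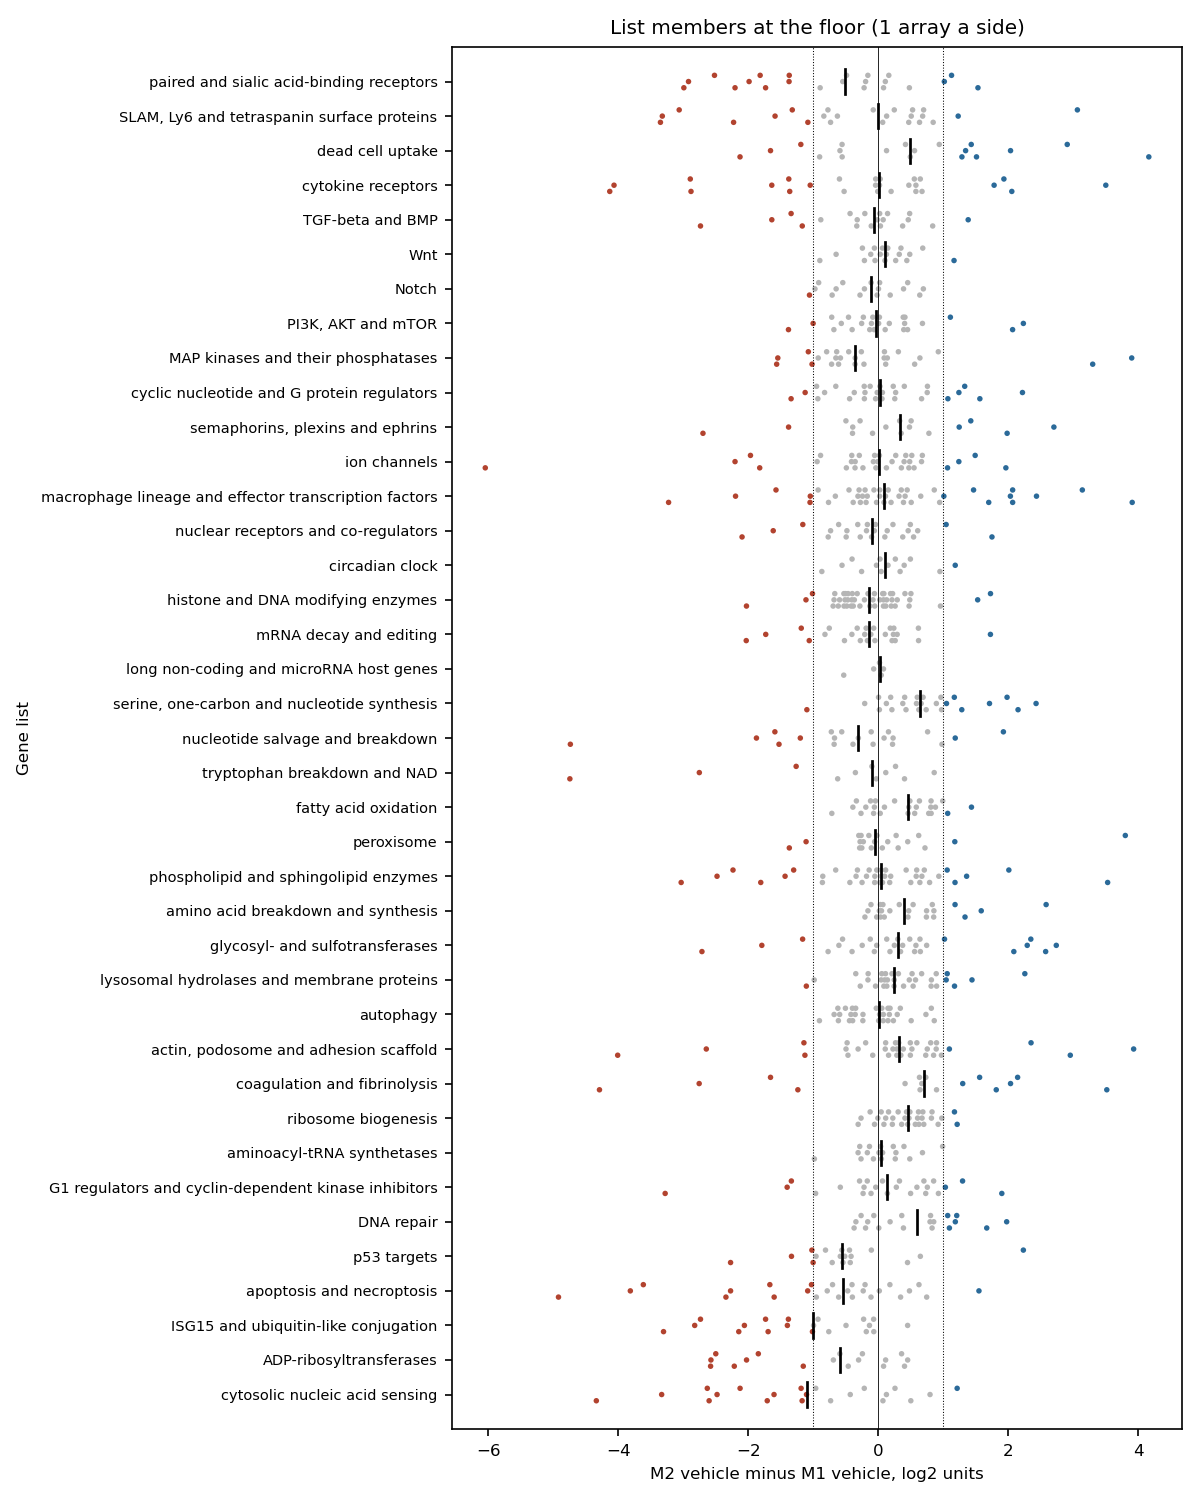
Each row is a gene list by function and each point a member at the floor, placed by its M2 minus M1 difference (x axis, log2 units). Blue is at least 2-fold higher in M2, red at least 2-fold higher in M1, the black bar is the list's median and dotted lines mark 2-fold. Medians run from -1.10 for cytosolic nucleic acid sensing to 0.70 for coagulation and fibrinolysis, and most lists hold points on both sides.

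Families whose members were taken by a symbol pattern covered more genes, although the families themselves were chosen with earlier results of these data known. Among 182 solute carriers 17 were higher in M2 and 19 in M1. The zinc importer Slc39a10 (8.32 and 11.31), the zinc exporter Slc30a4 (8.06 and 10.96) and the glutamine transporter Slc1a5 (8.51 and 11.24) led the M2 side. After Slco3a1, the M1 side held the neutral amino acid transporter Slc6a19 (10.81 and 6.09) and the mitochondrial iron importer Slc25a37 (11.52 and 8.76). ABC transporters had 6 of 28 higher in M2 and 1 in M1, with Abcb4 (7.05 and 8.57) and Abca9 (6.63 and 7.82) beside Abcd2, and Abca8b (8.33 and 6.26) on the M1 side. Abcd2, Abcb4 and Abca9 were under the floor in M1 and Abca8b in M2, so each was counted only through its higher side. Another 20 of 48 ABC genes were under the floor on both arrays. Of 9 cytochromes P450 at the floor, 4 were higher in M2 and none in M1. Cyp27a1, which hydroxylates cholesterol's side chain, read 8.62 and 10.68, and Cyp51 of cholesterol synthesis 7.88 and 10.56. Cyp2ab1 read 6.45 and 8.12, under the floor in M1, and 76 of 85 P450 genes measured were under it on both arrays. Aldh1a2, which makes retinoic acid, was the 1 of 21 aldehyde dehydrogenases and aldo-keto reductases past 2-fold, at 6.04 and 8.41. Of 15 glutathione S-transferases, Gsto1 (10.27 and 11.42) and Mgst3 (7.83 and 8.85) were higher in M2 and Gstt4 (8.22 and 6.52) in M1.

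Orphan and adhesion G protein-coupled receptors were split, with 7 of 37 higher in M2 and 8 in M1. Gpr183, which senses oxysterols, read 7.23 in M1 and 9.22 in M2, Gprc5c 7.38 and 9.79, and Gpr155 8.01 and 10.08. Besides Gpr31b, the M1 side held Gpr84, a receptor for medium-chain fatty acids (11.22 and 7.12), and Gpr141 (8.40 and 5.41). Tyrosine phosphatases had 3 of 21 higher in M2, namely Ptprn (7.94 and 10.14), Ptprs (9.19 and 10.85) and Ptpre (10.44 and 11.87). The M1 members were Ptpn6, the inhibitory phosphatase SHP-1 (11.95 and 10.45), and Ptpn22 (10.47 and 9.47). The family of phosphodiesterases, cyclases and RGS proteins had 6 of 23 higher in M2, with Pde12 (8.69 and 10.04) beside Pde3b and Rgs18, and only Pde7b (12.13 and 11.01) in M1. Of 19 potassium channels Kcnd3 (6.69 and 10.45) and Kcnk6 (10.29 and 11.78) were higher in M2 and Kcnab1 (8.34 and 7.30) in M1.

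Motor, trafficking and small GTPase families were counted in the same way. Of 26 kinesins 7 were higher in M2 and none in M1, and the 3 largest were the mitotic motors Kif11 (6.95 and 9.66), Kif20a (6.93 and 9.61) and Kif4 (5.48 and 8.05), all under the floor in M1. The kinesin median was 0.28, but it was -0.13 over members at the floor on both arrays. Among septins, tubulins and myosins, 2 of 21 were higher on each side: Tuba8 read 7.48 and 11.23, Tubb6 10.54 and 11.67, Myo10 11.11 and 9.98, and Tuba4a 9.64 and 8.58. Of 52 genes matching the Rab pattern, Rab20 (10.58 and 8.71) and Rab32 (11.34 and 9.55) were higher in M1, and the 1 higher in M2, Rab3il1 (10.19 and 12.81), is not itself a Rab but an activator of one. In 63 sorting nexins and Vps proteins, Snx9 (9.96 and 11.06) and Snx25 (7.42 and 8.50) were higher in M2, and Vps37b (9.70 and 8.28), Snx10 (10.90 and 9.64) and Snx20 (10.87 and 9.79) in M1.

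Families of protein turnover held some interferon-linked members on the M1 side, but their counts were not all above background. The M1 shares of proteasome genes (6.38%) and ubiquitin-specific proteases (4.88%) were under the 6.83% of all genes. That of ring finger proteins was 9.84%. Of 47 proteasome genes 3 were higher in M1, the immunoproteasome subunits Psmb9 (11.83 and 9.75) and Psmb8 (12.05 and 10.06) and the activator chain Psme2 (13.19 and 12.07), and none in M2. Ring finger proteins had 6 of 61 higher in M1 with Rnf24 (10.05 and 8.06) and Rnf135, a cofactor of RNA sensing (10.55 and 8.77), next to Rnf213, and Rnf144b (8.65 and 11.08) was the 1 higher in M2. Usp15 (11.45 and 10.35) joined Usp18 among 41 ubiquitin-specific proteases. Of 66 F-box and Kelch-like genes 4 were higher in M2, with Fbxo5, an inhibitor of the anaphase-promoting complex (6.82 and 8.29), Fbxo32 (7.92 and 9.08) and Fbxo36 (9.50 and 10.62), and Fbxw17 (10.44 and 8.72) was higher in M1. Serpins, cystatins and stefins had 4 of 15 higher in M1, including Cst7, an inhibitor of cathepsins (12.72 and 10.41), and the complement inhibitor Serping1 (8.11 and 6.57), while Serpinb9b read 8.04 and 11.19. Of 13 ADAM family genes Adamts1 (7.06 and 9.08) and Adamtsl5 (8.71 and 10.42) were higher in M2.

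Further families had few called members. Of 221 zinc finger proteins 4 were higher in M2 and 7 in M1, with Zfp101 (6.54 and 8.53) and Zfp395 (7.48 and 8.76) on one side beside Zfp36l1, which is an mRNA-binding protein, and Zfp287 (9.16 and 7.49), Zfp821 (9.31 and 7.72) and Zfp800 (11.85 and 10.28) on the other. Of 148 genes named only as transmembrane proteins 8 were higher in M2, with Tmem144 (8.13 and 10.80) after Tmem26 and Tmem267, and 4 in M1, with Tmem67 (11.21 and 8.93), Tmem171 (11.41 and 9.64) and Tmem140 (12.74 and 11.29). The only translation initiation gene past 2-fold was Eif2ak2 (11.06 and 9.35), which encodes the kinase PKR and not an initiation factor. Dnajc3 (10.10 and 11.31) was the 1 of 53 heat shock genes, and E-cadherin, Cdh1 (7.19 and 8.26), the 1 of 4 cadherins. Sox4 (7.0 and 8.01) was the 1 of 24 in the homeobox pattern, although it encodes an HMG-box factor and is not a homeobox gene. None of 28 small nuclear ribonucleoprotein and SR genes, 25 collagens and laminins or 7 keratins passed 2-fold.

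Identity genes were then compared, because the labels describe both cultures as macrophages. All 12 macrophage core genes measured were above the floor in M1 and 11 of 12 in M2. Adgre1, the F4/80 antigen, read 13.50 and 13.22, the M-CSF receptor Csf1r 12.56 and 13.12, Itgam 12.66 and 12.74 and lysozyme Lyz2 13.48 and 13.87. The core genes higher in M1 were Aif1 (10.93 and 7.05), the high affinity IgG receptor Fcgr1 (13.04 and 9.99) and the lipopolysaccharide co-receptor Cd14 (11.94 and 9.61). Genes that mark macrophages of particular tissues lay on both sides. The microglial Fcrls read 6.27 in M1 and 11.93 in M2, whereas the microglial nucleotide receptors P2ry12 (8.86 and 7.42) and P2ry13 (8.98 and 7.56) lay on the other side. Of 7 Kupffer cell genes at the floor, 3 were higher in M1 and 1 in M2 (median -0.57). The M2 member was Cd5l (8.29 and 10.48), and the M1 members were the scavenger receptor Marco (9.89 and 6.93) and Il18bp and Nr1h3, given above. Of 6 alveolar macrophage genes at the floor, 3 were higher in M2 and 1 in M1. The 3 were Atp6v0d2, Pparg and Chil3, which is also 1 of the 6 polarisation markers and was under the floor in M1. Pparg, a lipid-responsive receptor needed by alveolar macrophages, read 10.33 and 12.52. Marco, also on the alveolar list, was its member higher in M1.

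Markers of other cell types were measured on the same arrays, and their part in the results above was not tested. Osteoclast genes had 7 of 9 members at the floor higher in M2 and a mean signal over all 11 measured of 8.67 in M1 and 10.49 in M2. They included Dcstamp (6.90 and 11.51), Ctsk (7.08 and 10.33), Mmp9 (8.12 and 11.35) and Atp6v0d2 (11.49 and 13.81). The list shares Itgb3 with dead cell uptake and Atp6v0d2 with the alveolar list. Dendritic cell genes had 4 of 6 at the floor higher in M1 and 1 in M2, with means over 11 of 8.07 and 7.35. Clec9a read 9.97 and 5.62, Bst2, also an interferon-induced gene, 12.74 and 10.42, Xcr1 8.44 and 6.49 and Ccr7 9.29 and 7.53, while Batf3 read 8.10 and 9.51. Neutrophil genes had means over 12 of 7.15 and 7.64, with Ngp (7.41 and 9.92), S100a8 (6.55 and 7.81) and Ltf (6.92 and 8.04) higher in M2 and Lcn2, which macrophages also make, higher in M1 (12.39 and 10.01). The neutrophil median was 1.01 over 6 members at the floor and -2.38 when the floor had to be reached on both arrays. Lymphocyte genes had 8 of 10 members under the floor, with Cd4 at 7.82 and 7.72 and Cd79b at 8.07 and 8.47. Mast cell, basophil and eosinophil genes had 11 of 13 under it, and Ccr3 read 7.11 and 9.61. Of 12 stromal and endothelial genes 6 were under the floor and only Kdr (8.05 and 6.72) passed 2-fold, and the platelet chemokine Pf4, a myeloid gene as well, read 10.74 and 12.32.

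Some groups of neighbouring genes differed together. Of 10136 protein-coding genes at the floor, ordered by position, 64 stood in 14 runs of at least 4 neighbours that were all 2-fold higher on the same side. This measure was chosen after values had been seen. In 10 runs the genes were higher in M1. The longest held 7 Schlafen genes (Slfn5, Slfn9, Slfn8, Slfn2, Slfn1, Slfn4 and Slfn3), with differences from -6.52 to -1.25, and the next held 6 antiviral Trim genes from Trim6 to Trim30d (-3.52 to -1.30). Others held Ifi200 members, Gbp members, Ifit members, Oas members, Phf11 genes with Setdb2, Trem-like genes and the antigen processing cluster of Psmb9, Tap1, Psmb8 and Tap2 (-2.80 to -1.95). In 4 runs they were higher in M2: the histone genes H1f2, H2bc3, H2ac4 and H1f1 next to the iron regulator Hfe (1.27 to 2.24), the matrix proteases Mmp12, Mmp8 and Mmp27 with Tmem123 (1.05 to 4.82), the paraoxonases Pon3 and Pon2 with Asb4 and Slc25a13 (1.07 to 2.76), and Tceal8, Bex1, Tceal9 and Bex3 on the X chromosome (2.07 to 4.87). Many of these genes are duplicates of like sequence, whose probes can share signal.

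Probe sets of the same gene mostly gave like values. Of 651 genes at the floor with several probe sets, the median gap between the highest and lowest difference was 0.09, 18 had a gap of 1 or more, and none was 2-fold higher on opposite sides. In 45 of the 59 called by their mean, each probe set passed 2-fold in the same direction. The widest gaps were in Socs2, an inhibitor of cytokine signalling, with 2.02 and 4.78, in Zkscan17 with -2.45 and 0.10, and in the class I regulator Nlrc5, whose 19 probe sets ran from -3.98 to -1.58. Socs2 and Nlrc5 kept their direction in each probe set, whereas Zkscan17, called by its mean of -1.17, did not.

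Of 296 microRNA genes measured, 61 were at the floor, 2 were higher in M1 and 1 in M2 (median 0.09). Mir155, an inflammatory microRNA of macrophages, read 8.08 in M1 and 6.74 in M2, Mir142, a microRNA of blood cells, 10.39 and 9.34, and Mir181b-1 6.16 and 8.07. These probe sets lie on the gene and do not measure the mature strand. The main mature strands from RefSeq (GRCm38.p6), with the seed at bases 2 to 8 in capitals, are shown because their targets are set by the seed.
mmu-miR-155-5p (chr16:84714143-84714165, plus strand): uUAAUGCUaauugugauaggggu
mmu-miR-142a-5p (chr11:87756867-87756887, plus strand): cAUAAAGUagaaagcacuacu
mmu-miR-142a-3p (chr11:87756903-87756925, plus strand): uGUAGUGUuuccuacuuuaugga
mmu-miR-181b-5p (chr1:137966650-137966673, plus strand): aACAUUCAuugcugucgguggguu
The 4 seeds differ from each other.

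The IL-1α arrays gave the same contrast on other arrays of the same phenotypes under another treatment, and are not replicates. Of the 737 genes higher in M2 with vehicle, 698 (94.7%) were also 2-fold higher with IL-1α, as were 604 of the 716 (84.4%) on the M1 side. None of the former and 2 of the latter had the opposite sign with IL-1α. In the other direction, the vehicle calls covered 82.6% of the genes called higher in M2 with IL-1α and 95.3% of those called higher in M1. Between the IL-1α arrays 854 of 10479 genes (8.15%) were higher in M2 and 635 (6.06%) in M1. Over the 10489 genes, as a description, the vehicle and IL-1α differences correlated at 0.98 (Pearson) and 0.94 (Spearman). Genes are not independent points.

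The genes whose difference varied most between the contrasts had unlike M2 levels. Acod1, which makes itaconate, differed by -6.31 with vehicle and by -2.42 with IL-1α, reading 13.75 and 13.76 in M1 but 7.45 and 11.35 in M2. Gpr84 was at -4.10 and -1.69, and the NF-κB inhibitor Nfkbie at -2.47 and -0.73. On the M2 side Ccl17, a chemokine for type 2 T cells, was at 1.71 and 3.67 and the vasoconstrictor Edn1 at 1.58 and 3.18, with M1 levels under the floor on both arrays. Irf7 (-5.73 and -5.22), Mrc1 (5.31 and 5.36), Tfrc (3.52 and 3.62) and Clic5 (-6.04 and -5.74) differed by like amounts in both contrasts, although the M2 levels of Clic5 were under the floor.

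**Figure D5:**
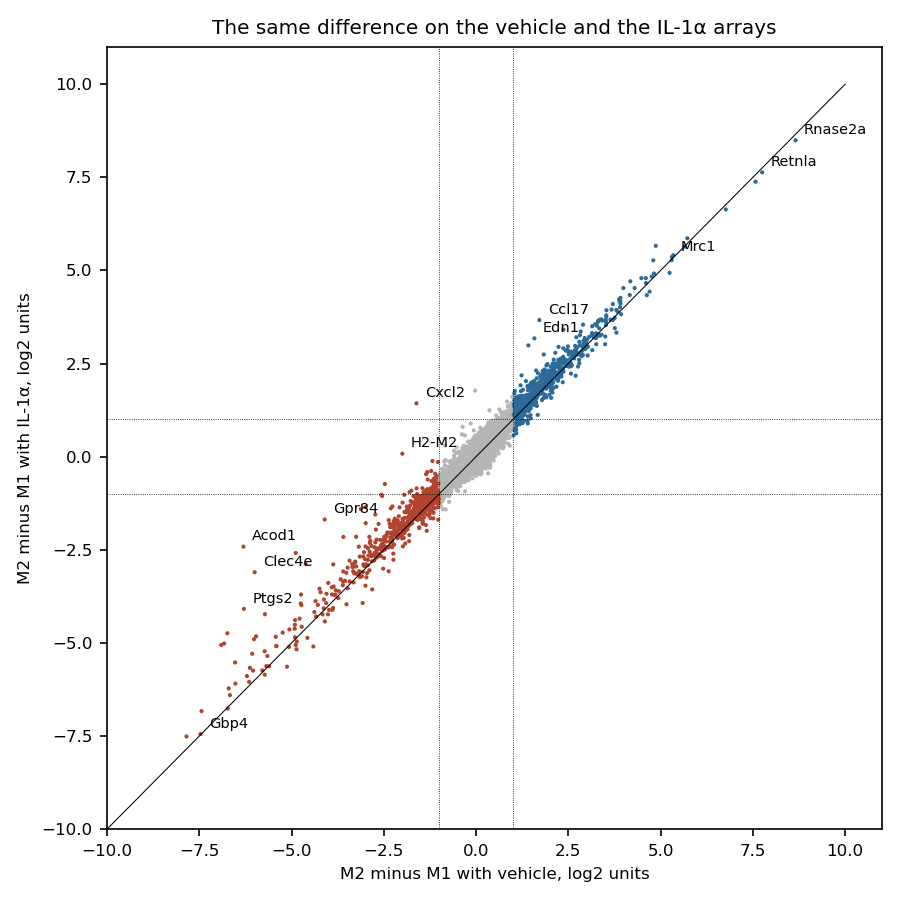
The M2 minus M1 difference of each of 10489 genes with vehicle (x axis) and with IL-1α (y axis), both in log2 units, coloured by the vehicle call (blue higher in M2, red higher in M1), with the line of equality solid and 2-fold dotted. Most points follow the line (r = 0.98), and Acod1, Cxcl2, Clec4e, Gpr84 and Ccl17 lie above it.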

How the data were processed

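Gene expression was measured on 1 single-colour Affymetrix mouse gene array per group. The submitters' processing notes name RMA and Affymetrix Expression Console, with which the authors made the deposited log2 value of each probe set. RMA subtracts background and quantile-normalises arrays, which removes any global difference in RNA. Settings and build are not given in the sources used here, and the log base was taken from the range of the values (3.09 to 14.47).

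Of 35556 probe sets, 21789 carried 1 gene in the platform annotation and 21698 of these matched RefSeq; 1621 carried several genes and 12146 none, and were left out. For the 999 of 19938 genes with several probe sets, their mean was used. A gene was counted at a 2-fold difference with at least 1 vehicle array at the floor of 7.617. Differences were computed with pandas 2.3.3 and tested on simulated data.

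The comparison, its 52 gene lists and 31 symbol families were chosen with earlier results of these data known, so their counts are descriptions and no p-value was computed. Of 1299 list symbols, 1203 were measured and 1003 reached the floor; the others were not analysed here. Named genes (283) were the 12 highest and 12 lowest at the floor on both arrays, the 5 highest and 5 lowest at the floor on 1 only, in each list up to 4 members past 2-fold plus the largest the other way (or the 2 largest), in each family up to 3 a side, the markers, and the 3 genes with the widest probe set gaps. Predicted genes, clones, small RNAs, olfactory receptors and receptor segments were left out of the first groups. Genes named beside promoter sites, neighbour runs or the IL-1α contrast, and core macrophage genes within 2-fold, fall outside the rule. So do Il4ra, Il13ra1, Il6st, St3gal4, Sesn2, Ido1, Ido2, Tdo2 and Kmo. All of these were chosen after their values were seen. Promoter motifs were searched on both strands in the first listed window of each gene and may overlap. A planned motif and a symbol family are not reported here. Alternatives were other thresholds, floors, loess centring, quantile normalisation and the brightest probe set. Probes of near-identical genes (Gbp, Ifi200, Ifit, Slfn, Oas, Ly6, ribonucleases) can share signal. The arrays' number limits the precision.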

Additional observations from a re-analysis of the deposited data

Results flagged for a closer look

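Of the genes at least 2-fold apart with vehicle, 2 lay on the other side of 0 between the IL-1α arrays. The difference between the contrasts was not tested, since each rests on 1 array a side. The neutrophil chemokine gene Cxcl2 differed by -1.62 with vehicle and by 1.43 with IL-1α. It read 8.33 in M1 with vehicle, 8.46 in M1 with IL-1α, 6.72 in M2 with vehicle and 9.90 in M2 with IL-1α, so the M2 vehicle level alone was under the floor. H2-M2, a class I gene outside the classical set, differed by -1.9999 and by 0.079. It read 10.15 and 10.09 in M1 and 8.15 and 10.17 in M2, all above the floor, so its M2 level with IL-1α lay close to that of M1.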

How the results depend on the processing

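The number of genes higher in M2 was 1477 at 1.5-fold, 222 at 4-fold, 429 with the floor at the 75th percentile and 459 with the floor reached on both arrays; under the other settings (no floor, loess centring, quantile normalisation, brightest probe set) it ran from 737 to 773. The number higher in M1 was 1400 at 1.5-fold and 250 at 4-fold, and 539 to 739 otherwise. The share of calls that were higher in M2 was 50.7% as reported and 43.4% to 51.8% under the alternatives. At 4-fold the interferon-type motif was present in 24.1% of genes higher in M1 and the STAT6 spacing in 10.99%; the STAT6 spacing was present in 11.04% of genes higher in M2, and in 5.82% with the floor on both arrays. Signs turned for Zkscan17 (0.10 with its brightest probe set), and for the medians of kinesins (-0.17 with the 75th percentile floor, -0.13 with the floor on both arrays), microglia genes (5.66 with the 75th percentile floor, 0.0398 with no floor), neutrophil genes (-2.38 with the floor on both arrays) and semaphorins (-0.086 with the 75th percentile floor), where the floor changes which members count. Of 283 named genes, none moved by more than the array spread under loess centring or quantile normalisation, whereas with the brightest probe set 11 did, besides Zkscan17. RMA had already quantile-normalised the deposited values, so loess centring and quantile normalisation could move them little. No paired analysis was possible because each group holds 1 array, and for the same reason no array could be left out. Signals under the floor limit the size of 278 differences higher in M2 and 177 higher in M1.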

Other observations

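Probe sets that the platform annotation gives no gene leaned to the M1 side. Of 4656 at the floor on a vehicle array, 249 (5.35%) were at least 2-fold higher in M1 and 74 (1.59%) higher in M2, whereas among 11649 probe sets with 1 gene the shares were 6.70% and 6.90%. Those with several genes, 793 at the floor, had 54 higher in M1 (6.81%) and 23 higher in M2 (2.90%). None of these probe sets is named here.

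By the kind of gene in RefSeq, 183 long non-coding RNA genes at the floor had 7 higher in M2 (3.83%) and 11 higher in M1 (6.01%), and 43 transcribed pseudogenes had 1 and 7. Protein-coding genes, 10136 at the floor, had 7.18% and 6.82%. Across chromosomes, the shares were widest apart on X, with 27 of 295 genes higher in M2 (9.15%) and 10 higher in M1 (3.39%). Both patterns were singled out after the values were seen.

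Some M2 differences widened between the IL-1α arrays. The retinoic acid enzyme Aldh1a2 was at 2.37 with vehicle and 3.41 with IL-1α, the oxidised lipoprotein receptor Olr1 at 1.42 and 2.99, and Slamf1, a receptor of the SLAM family, at 1.23 and 2.18. Levels of Aldh1a2 and Olr1 in M1 were under the floor on both arrays.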
